A study of Mus musculus with 14 samples.

Results

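The genes described here are 9 transcription factors that mark or pattern the lung mesenchyme: Tcf21, Tbx2, Tbx3, Tbx4, Tbx5, Foxf1, Foxf2, Gata6 and Gli1. They were listed by name, with earlier results of these data known, and they are 9 of the 48795 genes in the count table. A filter on low counts left 16408 genes for testing, 8 of the 9 factors among them, and Gli1 did not pass it. The cells were fibroblasts that grew out of pieces of lung or dorsal skin of male mice aged 8 to 10 weeks and were harvested after 14 days on plastic without stimulation. The wild-type groups were C57BL/6J mice, and the other groups carried the genotype label Rel -/- on the strain label C57BL/6J. Rel encodes c-Rel, a subunit of the transcription factor NF-kappaB. The labels gave 5 libraries of wild-type lung (numbers 1, 23, 3, 4 and 5), 4 of Rel-null lung (7, 8, 9 and 10), 2 of wild-type skin (11 and 22) and 3 of Rel-null skin (18, 19 and 20), and no group received any agent.

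The mesenchyme of the lung forms around the endodermal airway tube, and the fibroblasts, smooth muscle cells and pericytes of the adult organ descend largely from it. T-box factors of the Tbx2 and Tbx4 families are switched on in the lung bud and help to set its growth and branching, the forkhead factors Foxf1 and Foxf2 are induced in foregut mesenchyme by hedgehog ligands from the epithelium, and Tcf21 is needed for the mesenchyme of lung, kidney and heart. Gli1 is both a mediator and a direct target of hedgehog signalling, so its transcript is widely used as a readout of that pathway. Fibroblasts of different organs keep part of such a positional pattern when they are cultured.

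Promoter sequences are shown for the 3 members that the RefSeq promoter table of build GRCm38.p6 held. Of these, Tcf21 and Tbx4 were read in lung cultures and were at or near 0 in skin, whereas Foxf2 was read in both. Each sequence is the 250 bases before the RefSeq transcription start, written 5′ to 3′ on the strand of the gene, with the motif matches in capitals. The windows are chr10:22820144-22820393 on the minus strand for Tcf21, chr11:85896515-85896764 on the plus strand for Tbx4 and chr13:31625566-31625815 on the plus strand for Foxf2.
Tcf21: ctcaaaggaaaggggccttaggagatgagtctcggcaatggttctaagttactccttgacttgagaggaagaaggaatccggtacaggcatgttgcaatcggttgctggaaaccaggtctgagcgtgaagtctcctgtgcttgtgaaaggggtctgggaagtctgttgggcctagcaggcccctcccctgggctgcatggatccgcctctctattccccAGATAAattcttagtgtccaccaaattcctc
Tbx4: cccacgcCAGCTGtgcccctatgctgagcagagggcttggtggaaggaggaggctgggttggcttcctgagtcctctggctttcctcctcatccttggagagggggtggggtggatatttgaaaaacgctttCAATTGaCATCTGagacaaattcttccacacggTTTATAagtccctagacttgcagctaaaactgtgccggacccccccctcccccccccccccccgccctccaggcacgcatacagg
Foxf2: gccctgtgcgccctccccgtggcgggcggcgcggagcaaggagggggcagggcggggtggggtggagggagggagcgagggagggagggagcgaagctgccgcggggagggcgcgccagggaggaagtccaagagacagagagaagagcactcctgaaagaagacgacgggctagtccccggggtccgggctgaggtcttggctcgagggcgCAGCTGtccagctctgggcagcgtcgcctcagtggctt
Both strands were searched for the E-box CANNTG and its form CAGCTG (which lies inside the first), the T-box element AGGTGT, the forkhead motif GTAAACA, the GATA motif AGATAA, the GLI motif GACCACCCA, the TATA box TATAAA and the kappaB motif. The capitals in Tcf21 are a GATA match 31 bases before the start, at the base where GENCODE places the start of the gene, and 9.99% of the 32851 promoter windows in the table held that motif. In Tbx4 they are 3 E-boxes, at 243, 118 and 111 bases before the start, and a TATA box on the opposite strand at 85 bases. Foxf2 held 1 E-box of the form CAGCTG at 38 bases. An E-box was found in 66.2% of all windows, the form CAGCTG in 13.0% and a TATA box in 12.4%, so these letters are common. No window of the 3 held the T-box (11.8% of all windows), forkhead (3.17%), GLI (0.225%) or kappaB (7.25%) letters. The Foxf2 window was the richest of the 3 in CpG, with 21 CpG pairs and a GC content of 71.6%, and 83.7% of all windows held fewer CpG pairs. Tcf21 and Tbx4 held 5 and 6 CpG pairs, near the median of 6. The RefSeq start of Tbx4 lies inside the gene as GENCODE M21 gives it, downstream of the GENCODE start.

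Each library held 12780350 to 30987933 counts, apart from wild-type skin 22, whose total of 2663437 makes 3 counts worth 1.13 CPM (reads of a gene scaled to a library total of 1e6). Libraries are named by their labels, although some values went against a label. Rel read 9.42 and 9.47 CPM in labelled Rel-null skin 19 and 20, against 10.9 and 11.5 CPM in wild-type skin, while labelled Rel-null skin 18 read 0.0349 CPM and the labelled Rel-null lung libraries 0.0651 to 4.06 CPM. In wild-type lung Rel read 6.27 to 17.3 CPM in 4 libraries and 1.10 CPM in wild-type lung 4, which lay below 3 of the 4 Rel-null lung libraries. The female transcript Xist was read in wild-type lung 1 and wild-type skin 22, at 64.5 and 732 CPM, although the mice are described as male. Rel-null lung 10 carries a treatment label that names skin, but its title and source name lung, and it was kept with lung by these labels. Some libraries also had gaps, that is, genes without a count that averaged at least 5 CPM over the rest of the libraries from that tissue. Rel-null lung 7 missed 11.5% of such genes, wild-type skin 11 missed 8.22%, wild-type lung 4 missed 5.78%, labelled Rel-null skin 18 missed 3.37%, and the remaining libraries missed at most 0.728%. Nothing in the labels ties libraries to separate animals, and p-values therefore reflect only library-to-library spread, which may be technical.

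**Figure D1:**
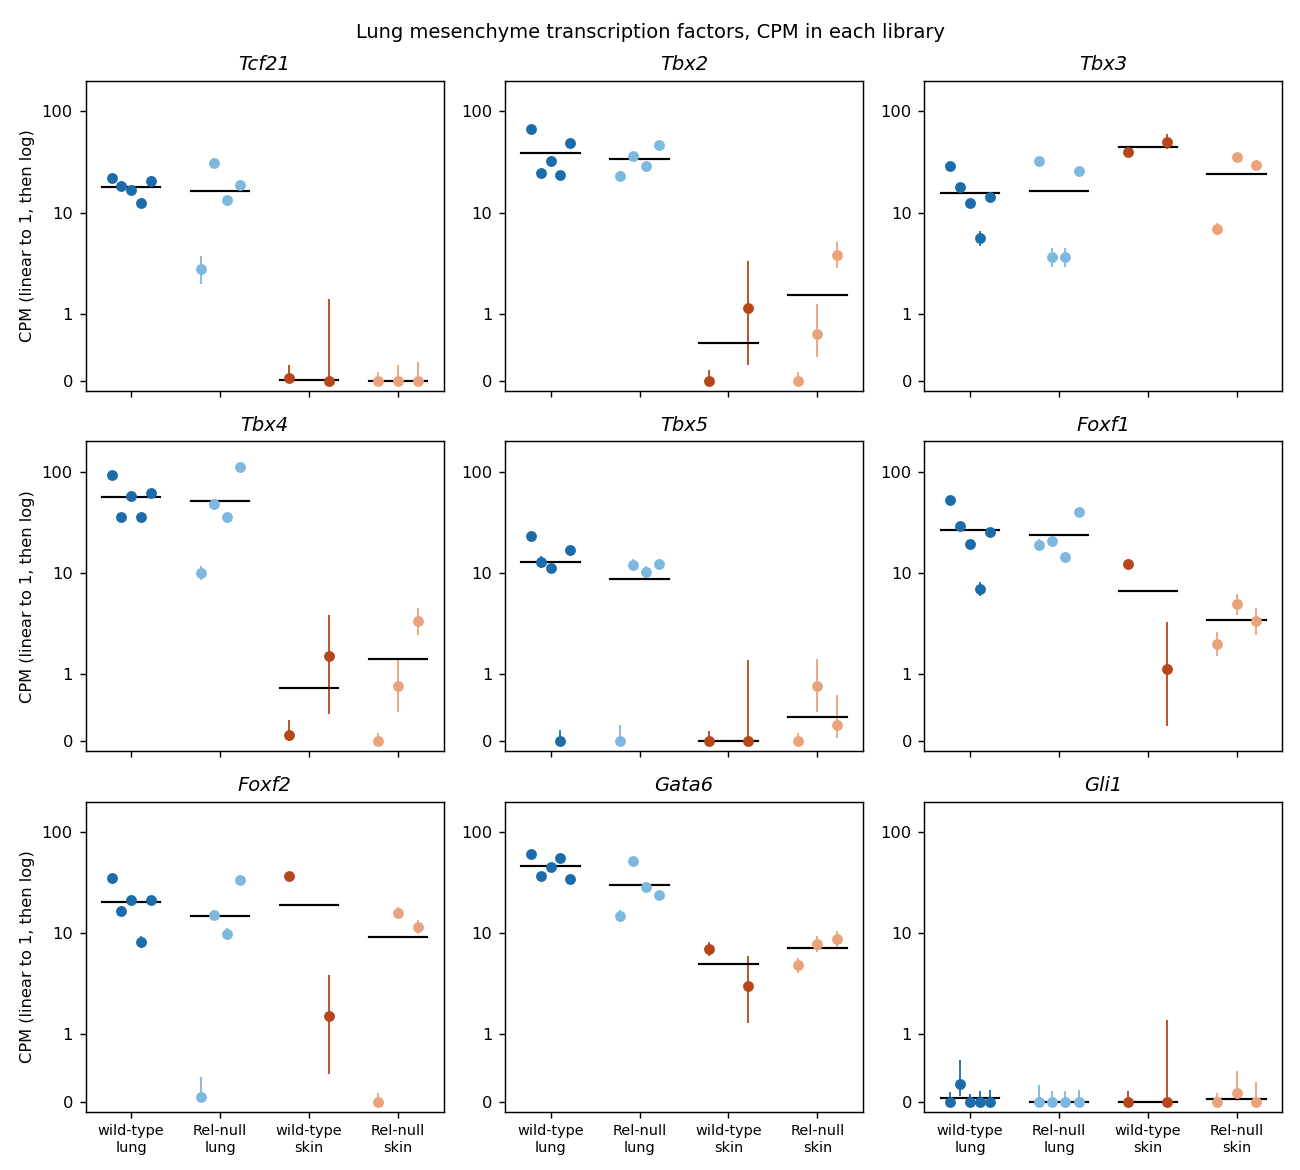
CPM of the 9 factors in each of the 14 libraries, by group. The vertical axis is linear up to 1 CPM and logarithmic above, points are libraries, thin bars are 95% Poisson intervals on the count and black lines are group means. Tcf21, Tbx2, Tbx4 and Gata6 were lower in all 5 skin libraries than in any of the 9 lung libraries, Tbx3 and Foxf2 overlapped between tissues, and Gli1 was at 0 in 12 libraries.

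The first comparison asked how the factors differ between skin and lung cultures. Across both genotypes 6 of the 8 tested members were lower in skin at an adjusted p under 0.05: Tcf21, Tbx2, Tbx4, Tbx5, Foxf1 and Gata6. Foxf2 and Tbx3, the only member with a value above 0, did not pass the threshold, so no member passed as higher in skin. Of all genes tested 10.4% passed in this comparison, and 6.17% passed as lower in skin. The median log2 fold change of the 8 members was -4.42, against -0.07 over all genes tested. In 4 of the 9 members (Tcf21, Tbx2, Tbx4 and Gata6) every skin library was below every lung library, a separation that 2.61% of the tested genes showed. These are bulk cultures, so fewer cells that carry a transcript and less of it per cell cannot be told apart.

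**Figure D2:**
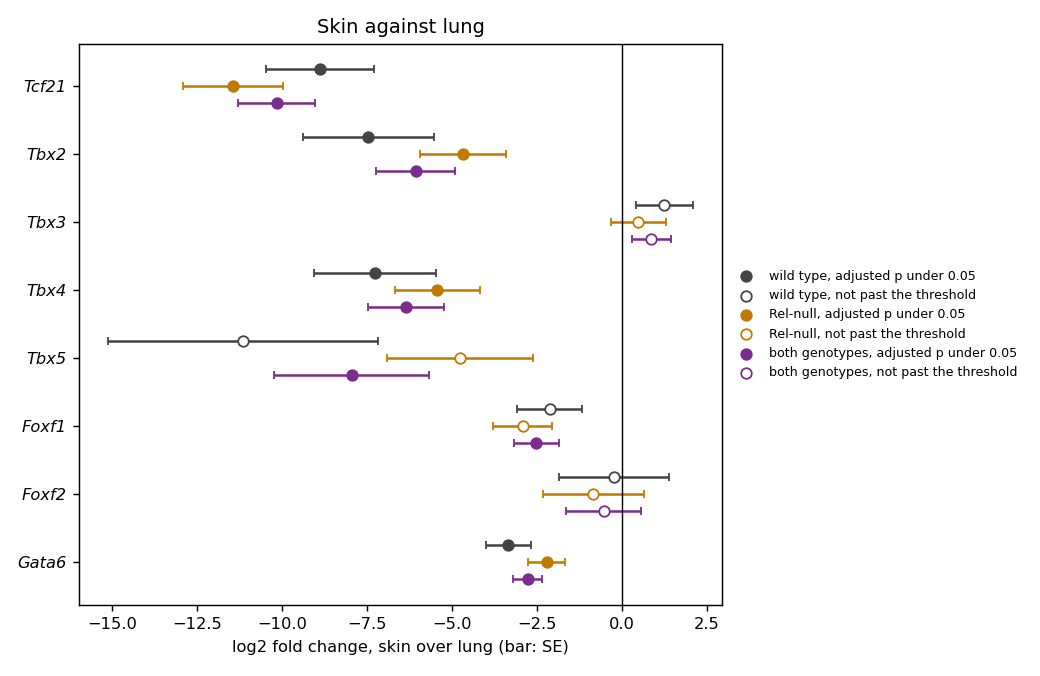
Log2 fold changes of skin over lung for the 8 tested members, in wild-type libraries, in Rel-null libraries and as the mean of both, from edgeR. Bars are standard errors (SE) and filled points passed an adjusted p of 0.05; 4 members passed in each genotype and 6 in the mean. The fitted values of Tcf21 in Rel-null and Tbx5 in wild-type skin are against groups at 0 counts and are no bounds.

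Tcf21, also called capsulin or epicardin, is a basic helix-loop-helix factor that marks lipid-storing fibroblasts of the lung (ENSMUSG00000045680, GRCm38 chromosome 10, 22817281-22820174, minus strand). It read 22.0, 18.4, 16.7, 12.5 and 20.7 CPM in wild-type lung 1, 23, 3, 4 and 5, and 2.73, 30.8, 13.2 and 18.8 CPM in Rel-null lung 7, 8, 9 and 10. In skin it had 1 count, 0.0430 CPM in wild-type skin 11, and 0 counts in the other 4 libraries. Every lung library lay above every skin library, and the lowest lung value was the library with the most gaps. The log2 fold change was -10.15 ± 1.13 (SE, adjusted p = 5.17e-05), a fitted value that is no bound because labelled Rel-null skin was at 0. The 3605 counts of all lung libraries against 1 count in skin gave a ratio of pooled CPM of 1484, with a 95% counting interval of 266 to 58648. Against the floor of 3 counts over the labelled Rel-null skin group, Tcf21 was at least 312-fold lower there than in Rel-null lung (adjusted p = 3.64e-04), and in wild-type libraries the log2 fold change was -8.87 ± 1.58 (adjusted p = 0.00626). Without wild-type skin 11, which leaves 1 wild-type skin library, the wild-type adjusted p was 0.0792.

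Tbx4, which with Tbx5 drives outgrowth of the lung bud and whose lung enhancer is used to label lung fibroblasts, had the highest mean level of the members in lung per length of exon (ENSMUSG00000000094, chromosome 11, 85886422-85916097). It read 92.9, 35.8, 57.1, 35.3 and 61.0 CPM in wild-type lung 1, 23, 3, 4 and 5, and 10.0, 47.8, 36.1 and 112 CPM in Rel-null lung 7, 8, 9 and 10. Wild-type skin 11 and 22 read 0.0861 and 1.50 CPM, and labelled Rel-null skin 18, 19 and 20 read 0, 0.828 and 3.36 CPM. The tissues did not overlap, and the lowest lung library was again Rel-null lung 7. Its log2 fold change was -6.34 ± 1.12 (SE, adjusted p = 0.00152), which is 81.0-fold lower in skin.

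Tbx2, a repressor that keeps the young lung mesenchyme dividing, lies next to Tbx4, with 44.5 kb between the genes (ENSMUSG00000000093, chromosome 11, 85832551-85841948). Wild-type lung 1, 23, 3, 4 and 5 read 66.8, 24.7, 32.2, 23.4 and 48.7 CPM, and Rel-null lung 7, 8, 9 and 10 read 23.2, 36.5, 29.2 and 46.8 CPM. In skin it read 0 and 1.13 CPM in wild-type 11 and 22, and 0, 0.700 and 3.83 CPM in labelled Rel-null 18, 19 and 20. As with Tbx4, the tissues did not overlap, and labelled Rel-null skin 20 was the highest skin library for both genes. The log2 fold change was -6.06 ± 1.17 (SE, adjusted p = 0.00300), or 66.9-fold lower in skin. Tbx2 varied less than Tbx4 among the Rel-null lung libraries, with a coefficient of variation of 30.0% against 84.1%.

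Tbx5, the partner of Tbx4 in the lung bud and better known for its role in the heart and forelimb, had the lowest lung level per length of the 6 members called (ENSMUSG00000018263, chromosome 5, 119832668-119885219). It read 23.1, 12.9, 11.1, 0 and 16.7 CPM in wild-type lung 1, 23, 3, 4 and 5, and 0, 12.1, 10.2 and 12.2 CPM in Rel-null lung 7, 8, 9 and 10. Both lung libraries at 0 were among the 4 with the most gaps. In skin Tbx5 had no counts in wild-type 11 and 22, and labelled Rel-null 18, 19 and 20 read 0, 0.828 and 0.235 CPM. The tissues overlapped only through the 2 lung libraries at 0, and the other 7 lung libraries read at least 10.2 CPM. Tbx5 had a log2 fold change of -7.94 ± 2.28 (SE, adjusted p = 0.0380), a fitted value that is no bound because wild-type skin was at 0. Against 3 counts over wild-type skin the wild-type lung level was at least 110-fold that of wild-type skin, a comparison that did not pass the threshold (adjusted p = 0.194). In the Rel-null libraries the pooled ratio of lung over skin was 33.4 (95% counting interval 20.4 to 58.7), and the fitted change did not pass either (adjusted p = 0.242). The call was lost when any 1 of 10 libraries was left out (wild-type lung 1, 23, 3 or 5, Rel-null lung 8, 9 or 10, wild-type skin 11 or 22, labelled Rel-null skin 20), with adjusted p from 0.0556 to 0.197. It was also lost with limma-voom (adjusted p = 0.0906), without wild-type lung 1 and wild-type skin 22 together (0.116) and without labelled Rel-null skin 19 and 20 (0.0761).

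Tbx3, a close relative of Tbx2 that also acts in limb, mammary gland and skin appendages, lies 148 kb from Tbx5 (ENSMUSG00000018604, chromosome 5, 119670669-119684724). Wild-type lung 1, 23, 3, 4 and 5 read 28.8, 17.7, 12.3, 5.56 and 14.4 CPM, and Rel-null lung 7, 8, 9 and 10 read 32.2, 3.59, 3.60 and 25.5 CPM. The skin libraries read 39.3 and 50.3 CPM in wild-type 11 and 22, and 6.90, 35.7 and 29.3 CPM in labelled Rel-null 18, 19 and 20. Both wild-type skin libraries were above all lung libraries, but labelled Rel-null skin 18 lay low within the lung range, so the tissues overlapped. Tbx3 had a log2 fold change of 0.87 ± 0.58 for skin over lung (SE, adjusted p = 0.430), with a 95% interval of -0.27 to 2.01. With limma-voom it was 1.72 (adjusted p = 0.0297), and without labelled Rel-null skin 19 and 20 it was -0.0076. The neighbouring pair Tbx3 and Tbx5 thus had different values in skin, where Tbx3 read at least 6.90 CPM and Tbx5 at most 0.828 CPM.

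Foxf1, a forkhead factor of lung and gut mesenchyme and of lung capillary endothelium, was lower in skin but not absent from it (ENSMUSG00000042812, chromosome 8, 121084386-121088144). It read 52.0, 29.2, 19.5, 6.89 and 25.6 CPM in wild-type lung 1, 23, 3, 4 and 5, and 19.1, 20.8, 14.5 and 40.1 CPM in Rel-null lung 7, 8, 9 and 10. In skin the values were 12.2 and 1.13 CPM in wild-type 11 and 22, and 1.99, 4.90 and 3.36 CPM in labelled Rel-null 18, 19 and 20. Wild-type skin 11 was above wild-type lung 4, so the tissues overlapped in these 2 libraries, both with many gaps. Foxf1 was 5.72-fold lower in skin, a log2 fold change of -2.52 ± 0.66 (SE, adjusted p = 0.0218). The adjusted p was 0.0596 without wild-type skin 22 and 0.0545 without labelled Rel-null skin 20. It was 0.153 with limma-voom, 0.0812 without wild-type lung 1 and wild-type skin 22 together, and 0.0876 without labelled Rel-null skin 19 and 20.

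Foxf2, the paralogue of Foxf1, acts in foregut and palate mesenchyme and in brain pericytes (ENSMUSG00000038402, chromosome 13, 31625816-31631403). Wild-type lung 1, 23, 3, 4 and 5 read 34.8, 16.6, 21.4, 8.21 and 21.3 CPM, and Rel-null lung 7, 8, 9 and 10 read 0.0651 (1 count), 15.0, 9.90 and 33.5 CPM. Wild-type skin 11 and 22 read 36.8 and 1.50 CPM, and labelled Rel-null skin 18, 19 and 20 read 0, 16.0 and 11.6 CPM. The highest value of all 14 libraries was thus in a skin library, one that had 1 count of Tcf21, 2 of Tbx4 and 0 of Tbx5. With a log2 fold change of -0.54 ± 1.10 (SE, adjusted p = 0.876), Foxf2 did not pass the threshold, and its 95% interval ran from -2.69 to 1.62. The value depended on which libraries were kept, and with single libraries left out it ran from -2.46 to -0.07. Without wild-type lung 4, Rel-null lung 7, wild-type skin 11 and labelled Rel-null skin 18, all rich in gaps, it was -2.48. That fit left wild-type skin 22, with 4 counts of Foxf2, as the only wild-type skin library. Without wild-type lung 1 and wild-type skin 22 it was 0.13.

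Gata6, a zinc finger factor of lung epithelium, smooth muscle and mesenchyme that also sets the identity of peritoneal macrophages, separated the tissues with the smallest standard error of the members (ENSMUSG00000005836, chromosome 18, 11052064-11085635). It read 60.1, 36.5, 45.3, 55.2 and 34.5 CPM in wild-type lung 1, 23, 3, 4 and 5, and 14.8, 52.0, 28.6 and 24.0 CPM in Rel-null lung 7, 8, 9 and 10. Skin cultures kept a low level, 6.97 and 3.00 CPM in wild-type 11 and 22 and 4.81, 7.83 and 8.69 CPM in labelled Rel-null 18, 19 and 20. No skin library reached a lung library, and Gata6 was detected in all 14. Its log2 fold change was -2.77 ± 0.43 (SE, adjusted p = 4.63e-04), or 6.84-fold lower in skin.

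Gli1 was at the limit of detection (ENSMUSG00000025407, chromosome 10, 127329882-127341974, minus strand). It had 5 counts in wild-type lung 23 (0.265 CPM), 2 counts in labelled Rel-null skin 19 (0.127 CPM) and none in the other 12 libraries. Over all lung libraries the pooled value was 0.0248 CPM (95% interval 0.00805 to 0.0578), and over all skin libraries it was 0.0241 CPM (0.00292 to 0.0870). The ratio of lung over skin, 1.03, had an interval of 0.169 to 10.8, so no difference between tissues was detectable at this depth. Other parts of the hedgehog pathway were read. The receptor Ptch1, itself a hedgehog target, stood at 3.65 to 37.9 CPM in lung and 0 to 16.8 CPM in skin, the transducer Smo at 52.9 to 136 and 24.3 to 96.5 CPM, and Gli3 at 7.86 to 28.9 and 16.9 to 51.1 CPM. Gli2 ranged from 0.130 to 13.9 CPM in lung and from 0 to 8.64 CPM in skin. Of the 18 tested genes of the hedgehog list, Evc2, a protein of the primary cilium, was higher in skin (0.88 ± 0.26, SE, adjusted p = 0.0453) and Disp1, which releases hedgehog ligand, was lower (-0.997 ± 0.303, adjusted p = 0.0471), and the other 16 did not pass the threshold. These 2 of 18 are near the 10.4% of all genes that passed.

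Levels of different genes were compared as CPM per kilobase of exon. In wild-type lung (n = 5) the order was Tbx4 at 16.6 ± 6.93 (SD), Foxf1 at 11.0 ± 6.85, Tbx2 at 10.8 ± 5.08, Foxf2 at 8.65 ± 4.08, Tcf21 at 7.69 ± 1.59, Gata6 at 7.12 ± 1.73, Tbx5 at 2.73 ± 1.81, Tbx3 at 2.38 ± 1.29 and Gli1 at 0.0106. Neighbours in this order from Tbx4 to Gata6 and from Tbx5 to Tbx3 differed by less than their SDs, while Gata6 and Tbx5 were further apart than theirs. In wild-type skin (n = 2) the order was led by Foxf2 at 8.10 ± 10.6 and Tbx3 at 6.76 ± 1.18, and Foxf1 stood at 2.76 ± 3.25 and Gata6 at 0.766 ± 0.431. The place of Foxf2 rested on wild-type skin 11, where it was 15.6 and Tbx3 5.93, whereas in wild-type skin 22 Foxf2 was 0.636 and Tbx3 7.60. Labelled Rel-null skin (n = 3) was also led by Foxf2, at 3.89 ± 3.49, and Tbx3, at 3.62 ± 2.28, which did not differ beyond their spread, before Foxf1 at 1.42 ± 0.604 and Gata6 at 1.09 ± 0.313. Tbx3, at the low end of the order in lung, had the highest level of the T-box members in both skin groups.

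Within each genotype 4 members passed the threshold for skin against lung, and in both genotypes these were Tcf21, Tbx2, Tbx4 and Gata6, all lower in skin. Of all genes 2.97% passed among wild-type libraries and 5.05% among Rel-null libraries, with 2.07% and 3.23% lower in skin. For Tbx2 the log2 fold change was -7.45 ± 1.92 in wild-type libraries (SE, adjusted p = 0.0466) and -4.68 ± 1.26 in Rel-null libraries (adjusted p = 0.0430). Tbx4 stood at -7.25 ± 1.79 (adjusted p = 0.0377) and -5.43 ± 1.26 (adjusted p = 0.0180). Gata6 stood at -3.33 ± 0.67 (adjusted p = 0.0100) and -2.21 ± 0.53 (adjusted p = 0.0226). The smaller size of all 3 changes among Rel-null libraries was not itself past the threshold: the difference of the genotype effects between tissues had adjusted p = 1.00 for each of the 8 members. Among wild-type libraries the number called was 1 without wild-type skin 11 and 2 without any 1 of wild-type lung 1, 23, 3, 4 and 5, Rel-null lung 8 and 9 and labelled Rel-null skin 19. Among Rel-null libraries it was 1 without labelled Rel-null skin 19 and 2 without Rel-null lung 8 or labelled Rel-null skin 18. Foxf1 had an adjusted p of 0.350 and 0.0667 in the 2 genotypes. Other tools gave other counts: DESeq2 called 5, 5 and 6 members among wild-type libraries, among Rel-null libraries and across both (9.20%, 11.9% and 17.0% of the genes it tested), and limma-voom with quality weights called 0, 7 and 4 (4.03%, 27.4% and 17.2%). These counts take either direction, and both the 7 and the 4 of limma-voom include Tbx3 as higher in skin.

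The second comparison asked how the factors differ between libraries labelled Rel-null and wild type. No member passed by edgeR, whether in lung, skin or the difference between the tissues, where 0% of all genes passed in each. At an unadjusted p under 0.05 the count was also 0 of 8 in all 3, against 6.31%, 6.24% and 4.67% of all genes. DESeq2 called 0 of them, against 0.317%, 1.09% and 0.673% of the genes it tested, and limma-voom called 0, against 0.0366%, 1.83% and 1.06%. In lung all 8 log2 fold changes were below 0, from -0.09 for Tbx3 to -0.66 for Gata6, with a median of -0.27 against -0.08 over all genes, of which 55.0% were below 0. For Tbx3 the group means in CPM ran the other way, at 16.2 ± 14.8 (SD, n = 4) in Rel-null lung and 15.7 ± 8.53 (n = 5) in wild-type lung. The groups overlapped for all 9 members. The 95% interval of the Gata6 value, -0.66 ± 0.44 (SE, adjusted p = 0.888), ran from -1.52 to 0.20, that of Tcf21, -0.16 ± 0.70 (adjusted p = 1.00), from -1.53 to 1.22, and that of Tbx5, -0.62 ± 1.53 (adjusted p = 1.00), from -3.62 to 2.38. A 2-fold decrease is inside each of these intervals. The direction also rested on single libraries. Wild-type lung 1 was the highest wild-type lung library for all 8 tested members. Without it the values of Tbx2, Tbx3, Tbx4 and Foxf1 were 0.09, 0.36, 0.16 and 0.25. Without Rel-null lung 7 those of Tcf21 and Tbx4 were 0.21 and 0.17. Tbx3 was 0.24 without Rel-null lung 8 and 0.30 without Rel-null lung 9.

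**Figure D3:**
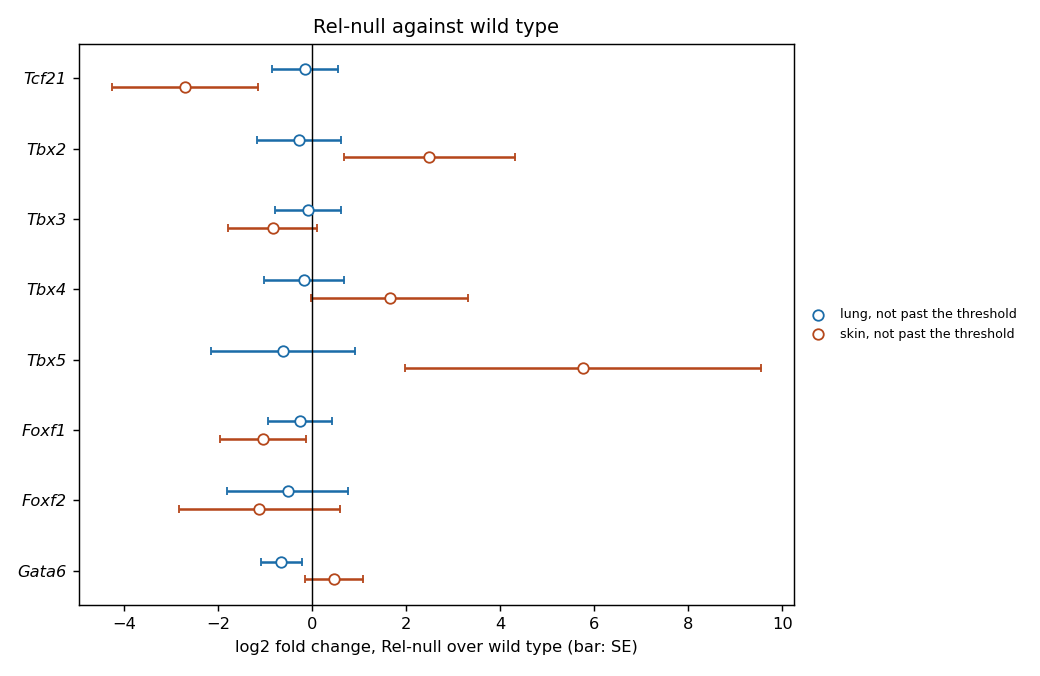
Log2 fold changes of Rel-null over wild type for the 8 tested members in lung and in skin, from edgeR. Bars are SE, and open points did not pass an adjusted p of 0.05; the lung values lie between -0.66 and -0.09. The skin values of Tcf21 and Tbx5 are fitted against a group at 0 counts and are no bounds.

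In skin 4 members had values above 0 and 4 below, with a median of -0.19, or 0.23 with the genes at 0 in a group set to their bounds, against 0.01 over all genes. Tbx3 was the only member whose genotype groups did not overlap, at 39.3 and 50.3 CPM in wild-type skin against 6.90, 35.7 and 29.3 CPM in labelled Rel-null skin. Such a separation with lower Rel-null values was shown by 11.5% of the tested genes, and the Tbx3 log2 fold change was -0.85 ± 0.95 (SE, adjusted p = 0.933). Tbx5 had 16 counts in labelled Rel-null skin and none in wild-type skin, at least 2.42-fold higher against the floor of 3 counts (adjusted p = 0.819), but 13 of them were in labelled Rel-null skin 19 and 3 in 20, so that without these 2 libraries both groups were at 0. No fold was given for Tcf21, which had 1 count in wild-type skin and 0 in labelled Rel-null skin. Tbx2 stood at 2.49 ± 1.82 (adjusted p = 0.846) and Tbx4 at 1.64 ± 1.67 (adjusted p = 0.919), and both rested on the doubtful labels: without labelled Rel-null skin 19 and 20 the fitted values were -5.33 and -6.08, which are no bounds, since the only library left read 0 counts against 3 and 6 counts in wild-type skin. For Foxf1 and Foxf2 the values were -1.05 ± 0.92 (adjusted p = 0.888) and -1.13 ± 1.71 (adjusted p = 0.966), and without wild-type skin 11 they were 1.80 and 2.81. Gata6, at 0.46 ± 0.61 (adjusted p = 0.955), was -0.04 without wild-type skin 22, and Tbx4 was -0.12 without labelled Rel-null skin 20.

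The members varied among lung libraries, partly together. Correlations were taken on normalized log2 CPM with a prior count of 1, a scale on which a library near 0 can lie far from the others. Over the 9 lung libraries 25 of the 28 pairs of tested members had a Pearson r above 0, with a median of 0.643. Without wild-type lung 4 and Rel-null lung 7, the lung libraries with the most gaps, all 28 were above 0, with a median of 0.624 over 7 libraries. The neighbours Tbx2 and Tbx4 had an r of 0.832 and 0.871 over the 9 and the 7 libraries (Spearman rho 0.933 and 0.857). Foxf1 and Foxf2, on different chromosomes, had an r of 0.415 over the 9 libraries and 0.904 over the 7. Rel-null lung 7 read Foxf1 at 19.1 CPM and Foxf2 at 1 count. Tbx3 and Tbx5 had an r of 0.0553 and 0.619. The libraries share totals, cell makeup and wild-type lung 1 as the highest library of several members, so these values are descriptions of 9 libraries. The share of pairs above 0 among all tested genes was not computed.

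Genes with the same pattern were sought on the same log2 scale over all 14 libraries, which span both tissues. The 5 protein-coding genes most like the mean z-score of the 8 tested members were Il6st, Phyh, Kcne4, Heg1 and Zfp36l1. Il6st, the shared receptor subunit of the interleukin 6 family, had a Pearson r of 0.961 over 14 libraries and 0.944 over the 9 lung libraries, and Zfp36l1, a protein that promotes mRNA decay, had 0.952 and 0.951. Phyh, Kcne4 and Heg1 had 0.956, 0.956 and 0.953 over all libraries and 0.756, 0.906 and 0.826 over lung. Il6st read 951 to 2759.7 CPM in lung and 173 to 381 CPM in skin. The closest gene to each single member was Fpr1 for Tcf21 (r 0.990), Nkd1 for Tbx2 (0.988), Selenbp1 for Tbx4 (0.988), Tmc8 for Tbx5 (0.983), Zfp407 for Tbx3 (0.887), Ism1 for Foxf1 (0.925), Acat3 for Foxf2 (0.989) and Vegfd for Gata6 (0.957). Fpr1, a receptor of phagocytes, read 19.5 to 92.0 CPM in lung and at most 0.0430 CPM in skin, and over the lung libraries alone its r with Tcf21 was 0.730.

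Other members of the same families gave a mixed picture for skin against lung, a comparison in which 10.4% of all genes passed. Of the 7 tested T-box factors outside the members, Tbx15, a factor of dermal and limb mesenchyme, was higher in skin (5.38 ± 1.06, SE, adjusted p = 0.00351), at 43.0 to 148 CPM against 0 to 6.03 CPM in lung. Tbx20 was lower (adjusted p = 0.0136), listed at 0 in all skin libraries and at 0 to 42.6 CPM in lung, and the other 5 did not pass. The median of these 7 was 0.35. Of 26 tested forkhead factors outside the members, Foxp1 (-1.02 ± 0.23, adjusted p = 0.00878) and Foxp2 (-5.16 ± 1.30, adjusted p = 0.0175), both known from lung development, were lower in skin, and Foxd3, a neural crest factor, was higher (8.56 ± 1.82, adjusted p = 0.00920). The fitted Foxd3 value is no bound, because Rel-null lung was at 0. The median of the 26 was -0.26, and the share of them that passed was near the 10.4% of all genes. Among 5 tested GATA-type factors outside the members, Gata4, Gata5 and Trps1 were lower in skin, and no other passed. Gata4 and Gata5 were at 0 in all skin libraries and at 0 to 10.5 and 0 to 110 CPM in lung (adjusted p = 0.00704 and 0.0149), and Trps1 stood at -1.50 ± 0.39 (adjusted p = 0.0213). The E proteins Tcf3, Tcf4 and Tcf12, the dimer partners of Tcf21, and the GATA cofactors Zfpm1 and Zfpm2 did not pass the threshold. Tcf4 read 117 to 237 CPM in lung and 137 to 220 CPM in skin.

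**Figure D4:**
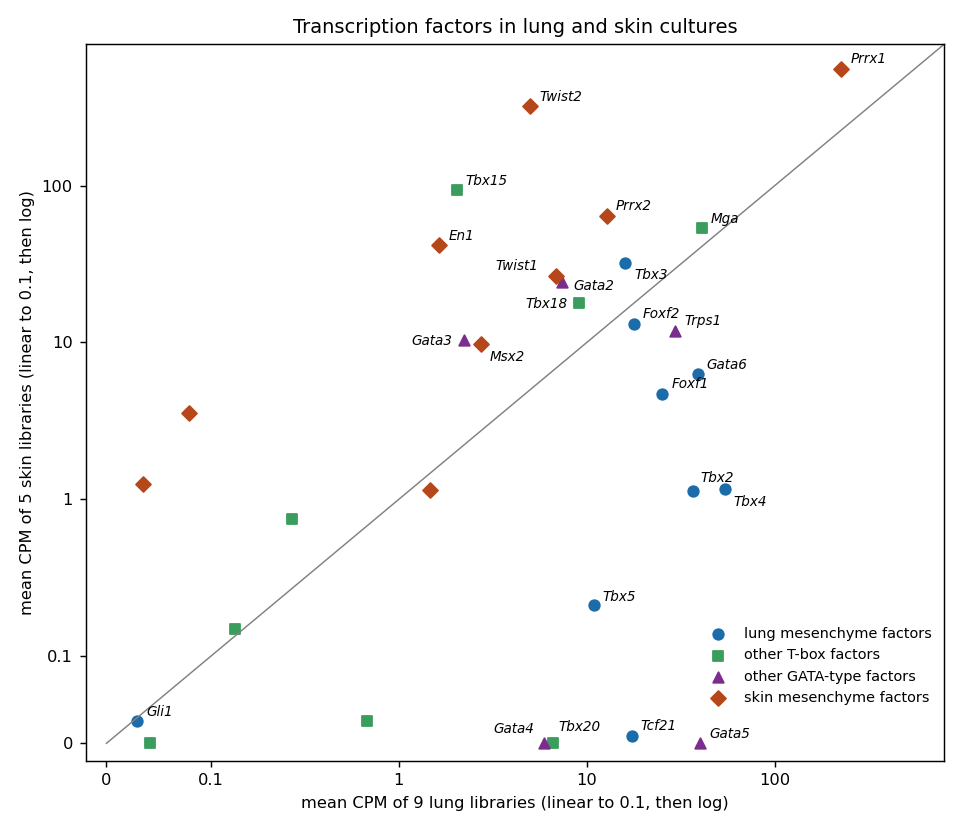
Mean CPM of 9 lung libraries against mean CPM of 5 skin libraries for the 9 members and for other T-box, GATA-type and skin mesenchyme factors. Both axes are linear up to 0.1 CPM and logarithmic above, the grey line marks equal values, genes at 0 in both tissues are left out, and names are given for members and for genes reaching 4 CPM in 1 of the tissues. Tcf21, Tbx5, Tbx2 and Tbx4 lie far below the line, Tbx3 lies above it, and Twist2, Tbx15 and En1 lie far above it.

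Genes that work beside the factors were counted from lists. Of 11 tested signals of the lung mesenchyme, Bmp4, Bmp5 and Aldh1a2 were lower in skin and Fgf7 was higher. Bmp4, a ligand that shapes the lung bud, read 10.9 to 55.6 CPM in lung and 0 to 0.375 CPM in skin (-9.78 ± 0.97, SE, adjusted p = 2.13e-05). The fitted Bmp4 value is no bound, because labelled Rel-null skin was at 0. Bmp5 stood at -9.23 ± 0.97 (adjusted p = 1.61e-05), and Aldh1a2, which makes retinoic acid, at -7.03 ± 0.68 (adjusted p = 7.79e-06). Fgf10, the branching signal of the lung mesenchyme, read 15.8 to 140 CPM in lung and 45.5 to 145 CPM in skin, with 0.48 ± 0.39 (adjusted p = 0.540). The median of the 11 signals was -0.30. All 11 genes of a list of lung fibroblast genes had values below 0 and 6 were lower in skin, Vegfd (-2.89 ± 0.32, adjusted p = 2.69e-05), Mfap4 (-4.57 ± 0.85, adjusted p = 0.00238) and Limch1 (-4.53 ± 1.07, adjusted p = 0.0121) with the smallest p, and the median was -2.89. In the opposite direction 4 of 10 tested skin mesenchyme factors were higher in skin, with a median of 2.01. Twist2, a helix-loop-helix factor of the dermis, read 83.0 to 425 CPM in skin and 0 to 17.4 CPM in lung (6.18 ± 0.77, adjusted p = 6.94e-05), and Prrx1 stood at 1.22 ± 0.20 (adjusted p = 9.57e-04). Between genotypes no gene of these 8 lists passed in lung or in skin, where 0% of all genes passed as well.

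Markers of several other cell types also differed between the tissues. All 7 tested of 9 leukocyte markers were lower in skin, with a summed level of 4189.5 to 18070.0 CPM in wild-type lung, 7275 to 22422 in Rel-null lung, 31.2 and 101 in wild-type skin and 94.0 to 127 in labelled Rel-null skin. The T cell marker Cd3e was at 0 in all lung libraries. Of 6 mesothelial markers 4 were lower in skin, with summed levels of 17.2 to 260, 7.16 to 327, 21.2 and 21.4, and 15.2 to 51.3 CPM in the same order of groups, and Upk3b, Wt1 and Lrrn4 were at 0 in skin. The other 2 had values above 0 and did not pass the threshold. Msln read 0.0430 to 16.1 CPM in skin and 0 to 17.8 CPM in lung. Of 8 endothelial markers 3 were lower in skin, with 35.0 to 114, 46.0 to 99.6, 6.67 and 8.64, and 10.7 to 25.2 CPM, and Emcn and Cldn5 were at 0 in skin. Tek had a value above 0, at 0.87 ± 1.28 (SE, adjusted p = 0.797). Cdh5 read 0.375 to 11.6 CPM in skin and 0.574 to 42.1 CPM in lung. The part of leukocytes, mesothelium and endothelium in the tissue difference of the members was not tested. Keratinocyte markers moved the other way, with 589 to 1966 CPM in labelled Rel-null skin, 16.5 and 39.2 in wild-type skin and 0.130 to 14.1 in lung, where Krt5, Krt15, Krt1, Dsg3 and Lor were at 0. All 11 fibroblast markers were detected in every group, at summed levels of 26668 to 145144 CPM in lung and 12694 to 49629.5 CPM in skin, where Thy1 was higher and Col3a1 lower and the other 9 did not pass the threshold. Of the remaining lists, 4 of 6 tested skeletal muscle markers, 2 of 5 Schwann cell and melanocyte markers and 2 of 9 lung epithelium markers (Krt8 and Krt18) were higher in skin, Sftpc and the smooth muscle marker Myh11 were lower, and the 1 adipocyte marker tested did not pass. Rel-null lung 7 also differed in markers, with a summed smooth muscle and pericyte level of 8944 CPM, against 472 to 2217 in wild-type lung. Its skeletal muscle sum was 332 CPM, against 0 to 1.10 in wild-type lung, and its fibroblast sum of 26668 CPM was the lowest in lung. The part of this makeup in its low values of several members was not tested. Wild-type lung 1 had the highest fibroblast sum in lung, 145144 CPM, and the lowest leukocyte sum in lung, 4189.5 CPM. The part of that makeup in its high member values was not tested either.

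Several members have a noncoding neighbour on the opposite strand that starts within 5 kb of their own start. Fendrr, a long noncoding RNA known from embryonic lung and heart mesoderm, starts 1276 bases from Foxf1. It read 0 to 12.7 CPM in lung and 0 to 0.751 CPM in skin (-5.03 ± 1.96, SE, adjusted p = 0.125). Gm43050, which starts 748 bases from Tbx5, was at 0 in all skin libraries and at 0 to 5.84 CPM in lung (adjusted p = 0.140). Tbx3os1 overlaps the start of Tbx3 and read at most 2.13 CPM in lung and 2.67 CPM in skin. The neighbours of Tbx2, Foxf2 and Gata6 read at most 2.05, 2.84 and 2.00 CPM in any library. The end of Gli1 overlaps Arhgap9 on the opposite strand, a gene read at 5.41 to 56.7 CPM in lung and at most 0.751 CPM in skin, and Gli1 nevertheless had 5 counts over all lung libraries. The strand setting of the counting is not known, so counts of overlapping genes are uncertain.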

How the data were processed

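RNA sequencing libraries of 14 fibroblast cultures were used. The authors deposited raw read counts per Ensembl gene in 1 table of the whole series, whose columns are named by numbers that each occur in 1 sample title. The submitters' processing notes list FastQC 0.11.2, Trimmomatic 0.33, STAR 2.4.2a and the build GRCm38, with no role given, and the labels' protocols name a directional library kit. How reads were counted, with which strand setting and on which annotation, is not given in the sources used here. Symbols, coordinates and exon lengths were taken from GENCODE M21, which held 48435 of the 48795 gene identifiers.

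Genes were tested with edgeR 4.0.16 in R 4.3.3 on the counts as deposited: TMM normalization, the filterByExpr filter with a count of at least 10 and a total of at least 15, and 1 quasi-likelihood model of 4 group means over all 14 libraries, so that the groups shared 1 estimate of spread, and Benjamini-Hochberg adjustment over 16408 genes with a threshold of 0.05. The common dispersion was 0.948. Levels are CPM on raw library totals. Correlations were computed on log2 CPM with the TMM factors and a prior count of 1. A fold against a group whose libraries all read 0 is a bound, computed against 3 counts over that group. Intervals on levels and ratios are exact 95% intervals (Poisson, or binomial for ratios) and describe counting error alone, because the reads carry no molecular identifiers and are not independent molecules. Intervals on log2 fold changes are the estimate with its SE under a normal approximation.

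Named were all members, up to 3 genes with the smallest p from each list of related genes, hedgehog genes that a result turns on, annotated neighbours within 5 kb, the genes with the highest Pearson r to the members, and defining markers. Fgf7, Fgf10, Tcf3, Tcf12, En1 and further genes in the plot of lung against skin levels fall outside this rule and were chosen after their values were seen. The members and lists were chosen with earlier results of these data known. Alternatives were DESeq2 1.42.0, limma-voom with quality weights (limma 3.58.1), normalization by RLE or upper quartile, testing without any low-count filter or with at least 1 CPM in at least 4 libraries, each library left out in turn, fits of only the groups compared, and fits omitting the 4 gap-rich libraries, the 2 Xist-positive libraries, or labelled Rel-null skin 19 and 20.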

Additional observations from a re-analysis of the deposited data

Results flagged for a closer look

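Within groups of 4 or 5 libraries, 2 of the 17 sets of member values tested held a library far from the others by Dixon's criterion, which chance exceeds in about 1 in 20 groups. Tbx5 was 0.0 CPM in Rel-null lung 7, while the other 3 Rel-null lung libraries read 10.2 to 12.2 CPM. Gli1 was 0.265 CPM in wild-type lung 23, from 5 counts, and 0.0 CPM in the other 4 wild-type lung libraries. A gene with counts in only 1 library of a group always exceeds this criterion. The rate of 1 in 20 therefore does not apply to the Gli1 flag.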

How the results depend on the processing

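No paired analysis was possible because the groups share no replicate numbers. The number of members called was 0 under every alternative run for the genotype comparison in either tissue and for the difference between tissues. Across both genotypes skin against lung called 4 to 6 members with a library left out. Among wild-type libraries it called 4 members, 0 with limma-voom, 7 without the 4 gap-rich libraries named above, and 1 to 4 with a library left out. Among Rel-null libraries it called 4, 7 with limma-voom (Tbx3 among them as higher in skin), 2 with only the groups compared, and 1 to 5 with a library left out. In Rel-null against wild-type lung the log2 fold change of Tcf21 was 0.14 with limma-voom and 0.094 without the libraries with gaps, where that of Tbx4 was 0.038, and without the Xist-positive libraries Tbx2, Tbx3, Tbx4 and Foxf1 were at 0.080, 0.37, 0.14 and 0.24. With a library left out the lung values were -0.67 to 0.21 for Tcf21, -0.49 to 0.089 for Tbx2, -0.56 to 0.36 for Tbx3, -0.91 to 0.17 for Tbx4 and -0.67 to 0.25 for Foxf1. In skin Foxf2 was 0.033 with limma-voom and 3.42 without the libraries with gaps, where Foxf1 was 2.10, and without labelled Rel-null skin 19 and 20 Tbx2, Tbx4 and Gata6 were -5.33, -6.08 and -0.086, the first 2 fitted against a library at 0 and no bounds. With a library left out the skin values were -0.12 to 3.78 for Tbx4, -1.90 to 1.80 for Foxf1, -2.06 to 2.81 for Foxf2 and -0.036 to 1.44 for Gata6. For skin against lung Foxf2 was 1.05 among wild-type libraries and 0.13 across genotypes without the Xist-positive libraries, and -4.12 to 0.70 among wild-type libraries with a library left out. Tbx3 was -1.29 among Rel-null libraries and -0.0076 across genotypes without labelled Rel-null skin 19 and 20. The cause of these changes was not tested. Tcf21, Tbx2 and Tbx4 were called across genotypes under all 9 other settings and with each library left out, and Gata6 under 8 of 9 (limma-voom adjusted p = 0.0634). Tbx5 and Foxf1 were each called under 6 of 9 and lost with limma-voom, without the Xist-positive libraries and without labelled Rel-null skin 19 and 20. A skin group left with 1 library was assumed to vary like the other groups. For Tcf21 and Tbx5 in skin, settings that left both groups at 0 gave no value. Depth limited Gli1 throughout and the near-0 members in wild-type skin 22.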
